A study of Arabidopsis thaliana with 111 samples.

Results

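Endo-beta-mannanases are the enzymes that cut the backbone of mannan, a wall polysaccharide, and Arabidopsis thaliana has a small family of genes for them, named MAN1 to MAN7. The 7 loci of the family were looked up by locus name in a table of 21313 loci measured on microarrays, and 6 had a line there: MAN1 (AT1G02310), MAN2 (AT2G20680), MAN3 (AT3G10890), MAN5 (AT4G28320), MAN6 (AT5G01930) and MAN7 (AT5G66460). MAN4 (AT3G10900), which lies next to MAN3 in the order of the reference annotation, was not analysed here. For 5 of the 6, all but MAN3, the highest group mean lay above 4.03 on the log2 scale, the level that leaves out the 25% of loci with the lowest highest group mean and that is called the dim level below.

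Mannans are hemicelluloses with a backbone of mannose, or of mannose and glucose, that can carry galactose side chains and acetyl groups. Endo-beta-mannanases cut this backbone inside the chain, alpha-galactosidases take off the side chains, and beta-mannosidases release mannose from the fragments. In seeds the walls of the endosperm, the tissue that encloses the embryo, are rich in mannan, and the endosperm in front of the radicle tip weakens before the radicle comes out. In Arabidopsis the testa (seed coat) ruptures first and the endosperm afterwards.

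Wild-type Columbia-0 seeds that germinated on water agarose in continuous light were dissected into 4 parts, which gave, with whole dry seeds, 28 groups, 27 of them of 4 arrays and the other of 3. The endosperm of the micropylar and chalazal ends (MCE) and the radicle with the embryonic axis (RAD) were each taken at 11 stages: 1, 3, 7, 12, 16 and 20 h after sowing, 25 h with the testa still intact and with the testa ruptured, 31 h, and 38 h with the endosperm still intact and ruptured. The rest of the endosperm (PE) was taken at 3 h (3 arrays) and 16 h, the cotyledons (COT) at 3, 16 and 31 h, and whole dry seeds once. The labels name no mutant, hormone or other treatment. They do not say whether replicates came from separate seed batches, so each p-value measures only the spread between these samples, which may be technical.

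Values are log2 expression values as deposited, made with RMA, which corrects background, normalizes the arrays together and summarises the probes of a locus. The number of arrays limits the precision, and the typical SD of a gene between arrays of a group was 0.193. The signals of different probe sets are not comparable, so each gene is compared only with itself. Differences were tested two-sided in limma with all arrays in the fit, and a locus was called where its p, adjusted after Benjamini and Hochberg over the loci of that comparison, was under 0.05 and its log2 difference was 1 or more in size. The words rose, fell, higher and lower are used for called differences unless values stand alone. In these bulk samples, fewer cells of a type and less RNA per cell cannot be told apart.

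The labelled parts were checked against marker genes. EPR1, an extensin-like gene of the endosperm, had group means of 12.41 to 13.88 in MCE and 13.38 to 13.76 in PE, against 3.53 to 7.78 in RAD and 3.91 to 7.81 in COT. EXPA2, an expansin gene of germinating endosperm, had 5.29 to 14.36 in MCE, 4.78 to 13.88 in PE, 4.00 to 5.20 in RAD and 4.47 to 5.49 in COT. PIN2, an auxin carrier gene of the root, had 5.58 to 10.25 in RAD, 4.37 to 5.26 in MCE and 4.61 to 6.84 in COT, which overlapped RAD. Of the further radicle markers, MYB66 reached 9.38 in RAD, 6.07 in COT and 3.84 in MCE. In the same order PLT1 reached 6.36, 3.58 and 3.85, and BBM 7.20, 4.30 and 4.11. YAB3, a gene of the lower face of lateral organs, had 8.49 to 9.40 in COT and 3.39 to 4.06 in RAD, and its relative FIL reached 10.97 in COT and 6.84 in MCE. The markers KAN1, which was higher in RAD (4.17 to 6.97) than in COT (4.38 to 5.50) at its highest, SCR, which had 5.54 or more in all parts, and ALE1, at 3.37 or less in all, did not mark their part. The seed coat genes TT10 (at most 3.30), TT2 (at most 3.44) and BAN (at most 3.87) lay below the dim level in all groups, and TT12 lay between 4.70 and 5.16 in all. ZOU and WOX5 were not analysed here.

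MAN7 was the member with the widest range of group means, 6.86 on the log2 scale, and it was above the dim level in all 28 groups. It was high in the endosperm between 12 and 31 h and intermediate in the radicle from 16 h on. In MCE it rose 30.5-fold between 7 and 16 h, and it fell again at 31 h and at both 38 h stages until its values overlapped those of dry seed. MAN1 ran the other way in time: it was high in dry seeds and in all parts at 1 and 3 h and near background from 7 or 12 h on. MAN6 was high early in endosperm, MAN2 was highest in the radicle after 12 h, MAN5 was highest in early stages of all parts, and MAN3 stayed between 2.60 and 3.05 in every group.

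**Figure D1:**
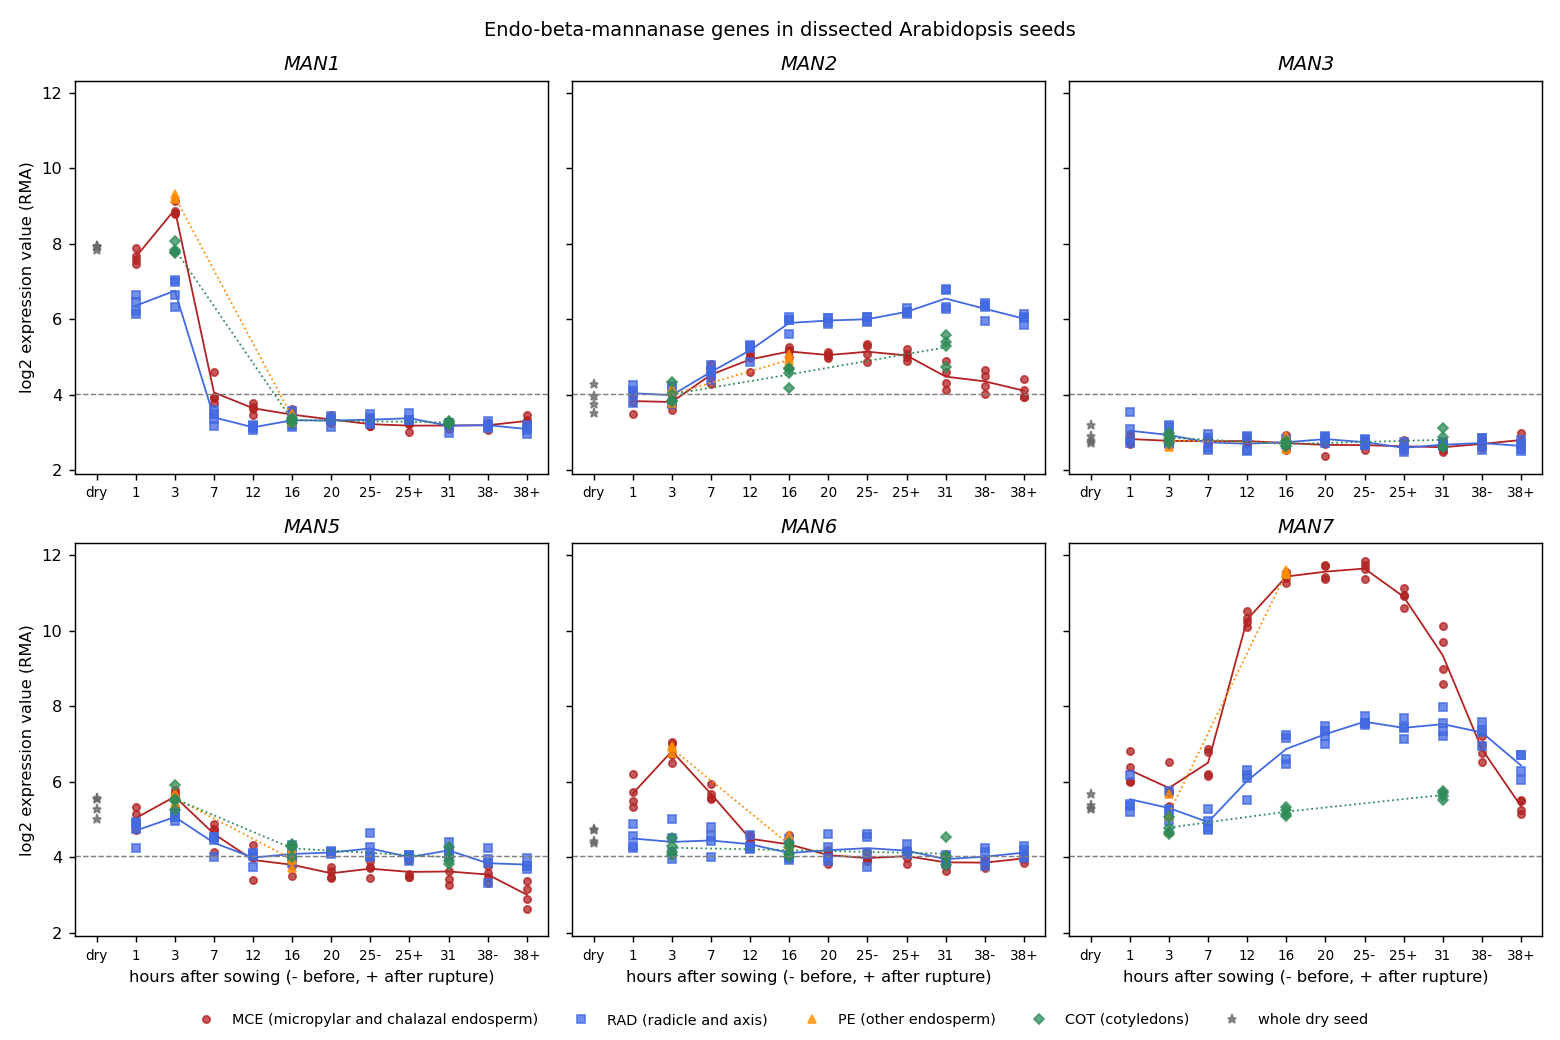
Log2 expression values (vertical axes) of the 6 measured mannanase genes against stage in hours after sowing (horizontal axes; minus marks stages before and plus after rupture of the testa at 25 h or of the endosperm at 38 h). Each point is 1 array, lines join group means, and the dashed line is the dim level of 4.03. MAN7 in MCE stands at 11.27 to 11.84 on single arrays from 16 h to 25 h with intact testa, while MAN1 leaves its early levels by 7 h in MCE and RAD.

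MAN7 in MCE gave 6.39, 6.82, 6.01 and 6.02 at 1 h and 5.70, 5.76, 5.37 and 6.52 at 3 h. At 7 h the 4 arrays gave 6.21, 6.86, 6.16 and 6.80, and at 12 h they gave 10.24, 10.33, 10.52 and 10.11. At 16 h the values were 11.52, 11.55, 11.40 and 11.27, at 20 h 11.42, 11.38, 11.74 and 11.72, and at 25 h with intact testa 11.63, 11.38, 11.74 and 11.84. The early groups overlapped, the step between 7 and 12 h left no overlap, and the 3 following groups overlapped with each other.

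Between 7 and 16 h the difference was 4.93 ± 0.21 (SE; 95% interval 4.51 to 5.35; adjusted p = 5.01e-38 in limma), where 18.0% of all loci were called. From 16 h to 25 h with intact testa it was 0.21 ± 0.21 (adjusted p = 0.505), which was not called (10.4% of loci called). From 1 to 7 h it was 0.20 ± 0.21 (adjusted p = 0.475; 18.0% of loci called). Of these 3 intervals up to testa rupture, that from 7 to 16 h alone was called.

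Seeds sorted at 25 h gave 10.62, 10.93, 11.13 and 10.93 in MCE once the testa had ruptured, all below the 4 arrays with intact testa. The difference of -0.75 ± 0.21 (adjusted p = 0.00568) was under the size asked for and was not called, in a comparison that called 3.37% of loci. At 31 h the arrays gave 8.97, 8.60, 9.69 and 10.13, the widest spread of any MAN7 group (SD 0.69, n = 4). MAN7 fell by 1.55 ± 0.21 from 25 h with ruptured testa to 31 h (adjusted p = 3.00e-09), as 3.59% of loci were called.

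The fall went on at 38 h. With the endosperm intact the values were 6.99, 6.75, 7.22 and 6.51, a fall of 2.48 ± 0.21 from 31 h (adjusted p = 6.24e-18; 5.82% of loci called). With the endosperm ruptured they were 5.51, 5.26, 5.50 and 5.15, a further fall of 1.51 ± 0.21 between seeds of the same age (adjusted p = 2.21e-08; 1.32% of loci called). None of these groups overlapped with the next. Of the 3 measured of 4 listed endosperm markers, EPR1 had MCE means of 13.05 at 25 h with intact testa and 12.41 at 38 h with ruptured endosperm. EXPA2 had 14.36 and 13.62 at these stages, and ALE1 lay below the dim level at both. Their part in the fall of MAN7 was not tested.

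Some of these arrays carry labels that call for care. For replicate 2 of MCE at 16 h, at 20 h and at 25 h with intact testa, the source name gives 12, 16 and 20 h. MAN7 had 11.55, 11.38 and 11.38 there, and 12 h arrays reached at most 10.52. A further 6 arrays were redone, among them MCE at 7 h replicate 2 (6.86), at 12 h replicate 2 (10.33), at 25 h with intact testa replicate 1 (11.63) and at 31 h replicate 4, which was the highest of its group at 10.13. Without the arrays with differing labels, or without the redone arrays, every MAN call stood.

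In RAD the same gene reached lower values. The arrays gave 5.37, 5.19, 5.40 and 6.19 at 1 h. At 7 h the arrays gave 5.28, 4.77, 4.97 and 4.72, the third of them from a redone array, and at 16 h they gave 6.47, 7.24, 6.62 and 7.16. MAN7 rose by 1.94 ± 0.21 between these stages (3.83-fold; adjusted p = 9.04e-14), where 18.8% of loci were called. From 20 h to 38 h with intact endosperm all group means lay between 7.26 and 7.59 and neighbours in that order overlapped. At 38 h with ruptured endosperm the values were 6.70, 6.05, 6.71 and 6.28.

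No other interval in RAD gave a MAN7 call. The difference was -0.60 ± 0.21 from 1 to 7 h (17.0% of loci called), 0.72 ± 0.21 from 16 to 25 h with intact testa (3.81%), -0.16 ± 0.21 at testa rupture (2.02%), 0.10 ± 0.21 from there to 31 h (1.71%), -0.22 ± 0.21 from 31 to 38 h with intact endosperm (7.03%) and -0.87 ± 0.21 at endosperm rupture (1.91%). Of the endosperm markers in RAD, EPR1 had means of 7.20 at 7 h, 4.76 at 16 h and 4.04 at 25 h with intact testa. EXPA2 had 4.30, 5.10 and 4.87 at these stages, and ALE1 lay below the dim level at each. Their part in the MAN7 values of RAD was not tested.

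MCE was compared with RAD at 6 stages, as the plot of differences between these parts shows. MAN7 was higher in MCE at 7 h by 1.57 ± 0.21 (8.72% of loci called), at 16 h by 4.56 ± 0.21 (23.7-fold; 14.8%), at 25 h with intact testa by 4.06 ± 0.21 (16.6-fold; 22.9%) and at 31 h by 1.82 ± 0.21 (30.4%), with adjusted p of 6.73e-10 or less. At 1 h the difference was 0.77 ± 0.21 and was not called (5.48%). At 38 h with ruptured endosperm the order had turned: MAN7 was lower in MCE, with a difference of -1.08 ± 0.21 (adjusted p = 3.77e-06; 31.6%). That last call rests on a difference close to 1: it was -0.99 without RAD replicate 1 and -0.99 without RAD replicate 3, just short of the size asked for.

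**Figure D2:**
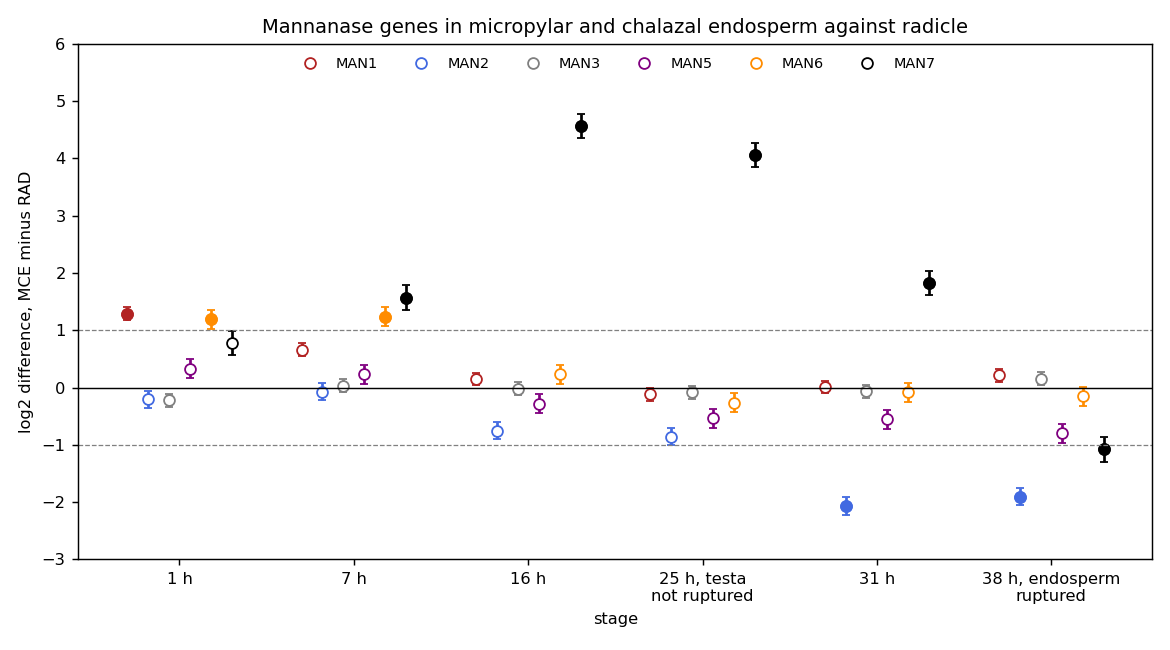
Log2 difference of MCE minus RAD (vertical axis) of the 6 measured mannanase genes at 6 stages (horizontal axis). Points are differences of means of 4 arrays, bars are the SE from the fit, filled points passed the test and dashed lines mark a difference of 1. MAN7 goes from 0.77 at 1 h to 4.56 at 16 h and -1.08 at 38 h, and MAN2 is lower in MCE at the last 2 stages drawn.

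The difference between the parts was also tested as an interaction, in which the change seen in RAD is taken from that seen in MCE. From 1 h to 25 h with intact testa MAN7 rose by 3.28 ± 0.30 more in MCE (adjusted p = 3.89e-17), in a comparison that called 21.6% of loci. At testa rupture the interaction was -0.58 ± 0.30 (adjusted p = 0.348; 2.16% of loci called), and at endosperm rupture it was -0.64 ± 0.30 (adjusted p = 0.313; 1.98%). For both ruptures a difference between the parts in the MAN7 change was thus not shown.

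In the rest of the endosperm MAN7 was also high at 16 h, and no difference from MCE was called. In PE the arrays gave 4.68, 5.11 and 5.68 at 3 h and 11.50, 11.56, 11.51 and 11.60 at 16 h. MAN7 rose by 6.38 ± 0.23 (83.5-fold; adjusted p = 1.50e-44), where 29.6% of loci were called. PE minus MCE was 0.11 ± 0.21 at 16 h (95% interval -0.31 to 0.52; 1.11% of loci called) and -0.68 ± 0.23 at 3 h (adjusted p = 0.147; 0.305%).

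In cotyledons MAN7 stayed low. The values were 4.68, 4.77, 5.07 and 4.62 at 3 h, the second from a redone array, then 5.26, 5.10, 5.33 and 5.15 at 16 h and 5.64, 5.75, 5.71 and 5.52 at 31 h. Neither step was called (0.42 ± 0.21, where 30.8% of loci were called, and 0.44 ± 0.21, where 11.2% were). MAN7 was lower in COT than in RAD at 16 h (-1.66 ± 0.21) and at 31 h (-1.87 ± 0.21) (11.2% and 15.4% of loci called), and at 3 h the difference was -0.52 ± 0.21 (4.71%). Whole dry seeds, which also hold every other part and the seed coat, gave 5.67, 5.29, 5.27 and 5.38. MCE at 1 h minus dry seed was 0.91 ± 0.21 and RAD at 1 h minus dry seed 0.13 ± 0.21, neither of them called (3.35% and 3.21% of loci called). The first of these reached 1.01 without MCE replicate 3 at 1 h and 1.00 without replicate 4 and was then called.

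**Figure D3:**
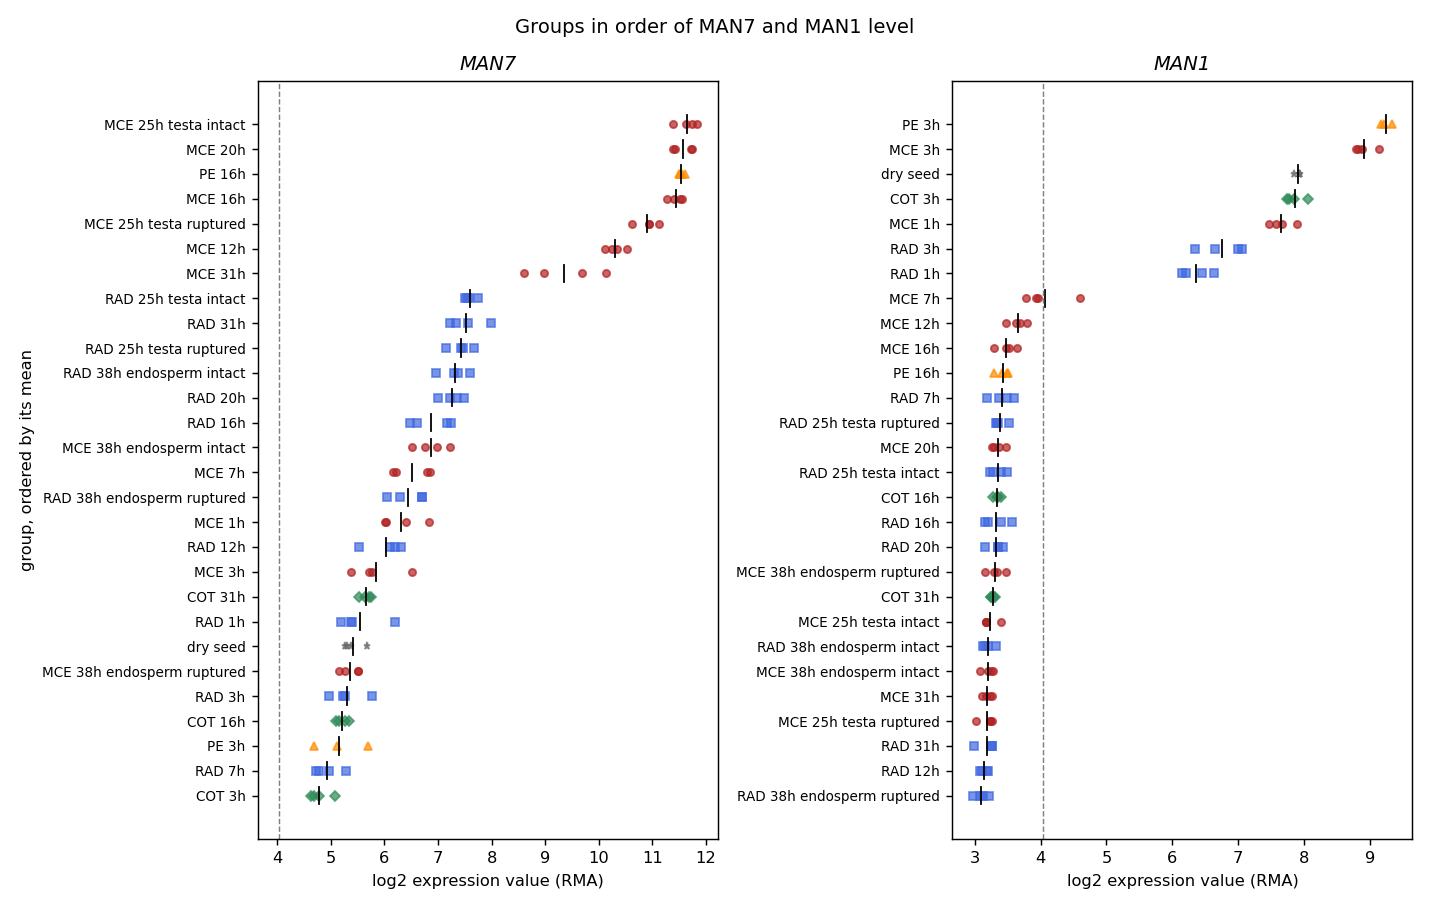
Groups ordered by their mean (vertical axis) against the log2 expression value (horizontal axis) of MAN7 and of MAN1. Points are arrays (circles MCE, squares RAD, triangles PE, diamonds COT, stars dry seed), short lines are group means and the dashed line is the dim level. The 7 groups with the highest MAN7 are all endosperm, and the 7 groups with the highest MAN1 are dry seed or parts taken at 1 or 3 h.

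In order of level, MAN7 was highest in MCE at 25 h with intact testa (11.65 ± 0.20, SD, n = 4), MCE at 20 h (11.57 ± 0.19), PE at 16 h (11.54 ± 0.05) and MCE at 16 h (11.44 ± 0.13), and each of these overlapped with its neighbour. MCE at 25 h with ruptured testa (10.90 ± 0.21), MCE at 12 h (10.30 ± 0.17) and MCE at 31 h (9.35 ± 0.69) followed. The first 2 of these 3 stood apart from their neighbours above, and the last overlapped with the group at 12 h. A gap without overlap of 1.76 separated MCE at 31 h from the next group, RAD at 25 h with intact testa (7.59 ± 0.11). From there down to COT at 3 h (4.79 ± 0.20) every group overlapped with the one below it.

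MAN1 was the second member with a wide range, 6.15 on the log2 scale, and its high values were all early. Dry seeds gave 7.93, 7.84, 7.93 and 7.93. In MCE the arrays gave 7.89, 7.67, 7.58 and 7.46 at 1 h, 8.88, 8.83, 9.14 and 8.79 at 3 h and 3.95, 4.60, 3.93 and 3.78 at 7 h. In RAD they gave 6.45, 6.21, 6.64 and 6.15 at 1 h, 7.00, 6.64, 6.34 and 7.05 at 3 h and 3.49, 3.19, 3.59 and 3.36 at 7 h. The values at 7 h lay below those at 1 and 3 h by more than 2 log2 units in both parts.

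From 1 to 7 h MAN1 fell by 3.59 ± 0.11 in MCE (12.0-fold; adjusted p = 1.29e-48) and by 2.96 ± 0.11 in RAD (7.76-fold; adjusted p = 2.56e-42). Since levels from 7 h on lie near or below the dim level, these folds are not exact. Later intervals gave no MAN1 call in either part. The interaction from 1 h to 25 h with intact testa was -1.41 ± 0.15 (adjusted p = 2.35e-13): MAN1 started higher in MCE and ended at similar values, 3.23 in MCE and 3.35 in RAD.

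Across the parts MAN1 was higher in MCE than in RAD at 1 h by 1.29 ± 0.11 (adjusted p = 3.14e-18). At 3 h PE gave 9.22, 9.33 and 9.18, and at 16 h 3.29, 3.42, 3.50 and 3.49, a fall of 5.82 ± 0.12. COT gave 7.78, 7.84, 7.75 and 8.06 at 3 h and 3.34, 3.33, 3.40 and 3.27 at 16 h, a fall of 4.52 ± 0.11. MAN1 was higher in COT than in RAD at 3 h by 1.10 ± 0.11, a call that was lost without RAD replicate 3 (0.96). RAD at 1 h was lower than dry seed (-1.55 ± 0.11), while MCE at 1 h minus dry seed was -0.26 ± 0.11 and not called. PE minus MCE was 0.34 ± 0.12 at 3 h (adjusted p = 0.189).

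The order of MAN1 levels began with PE at 3 h (9.24 ± 0.08, SD, n = 3) and MCE at 3 h (8.91 ± 0.16, n = 4), which did not overlap with each other. Dry seed (7.91 ± 0.04), COT at 3 h (7.86 ± 0.14) and MCE at 1 h (7.65 ± 0.18) followed and each overlapped with its neighbour, then RAD at 3 h (6.76 ± 0.33) and RAD at 1 h (6.36 ± 0.23), which also overlapped. MCE at 7 h (4.07 ± 0.36) was the last of the 8 groups above the dim level. Its mean passed that level through the redone replicate 2 (4.60), and its other arrays lay below the level, at 3.78 to 3.95. The other 20 groups lay between 3.10 and 3.65.

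MAN6 was an early endosperm transcript in these arrays. In MCE it gave 5.50, 5.32, 6.21 and 5.73 at 1 h, 6.50, 7.00, 6.70 and 7.05 at 3 h, 5.69, 5.57, 5.54 and 5.93 at 7 h and 4.28, 4.10, 4.60 and 4.40 at 16 h. In PE it gave 6.93, 6.96 and 6.76 at 3 h and 4.33, 4.33, 4.12 and 4.58 at 16 h. In RAD its group means stayed between 3.95 and 4.50 and in COT between 4.10 and 4.26, near the dim level.

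MAN6 fell by 1.34 ± 0.17 in MCE between 7 and 16 h (adjusted p = 1.72e-11) and by 2.54 ± 0.18 in PE between 3 and 16 h (adjusted p = 6.24e-24). It was higher in MCE than in RAD at 1 h by 1.19 ± 0.17 and at 7 h by 1.23 ± 0.17 (adjusted p of 3.43e-09 or less), and from 16 h on the difference lay between -0.26 and 0.23 with no call. The interaction from 1 h to 25 h with intact testa was -1.45 ± 0.23 (adjusted p = 9.87e-08). Already at 1 h MCE was above whole dry seed by 1.11 ± 0.17 (adjusted p = 4.60e-08), and without MCE replicate 3 at 1 h this was 0.94 and no longer called. Dry seed arrays gave 4.73, 4.44, 4.38 and 4.76.

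MAN2 was the member with its highest values in the radicle. In RAD the arrays gave 4.63, 4.39, 4.64 and 4.78 at 7 h, 5.99, 6.05, 5.61 and 5.97 at 16 h and 6.34, 6.29, 6.79 and 6.79 at 31 h. MAN2 rose in RAD by 1.30 ± 0.15 between 7 and 16 h (adjusted p = 1.54e-12). In MCE its group means were 3.84 at 1 h, 4.54 at 7 h, 5.15 at 16 h, 4.48 at 31 h and 4.11 at 38 h with ruptured endosperm. No interval was called there, with differences of 0.70 from 1 to 7 h and 0.61 from 7 to 16 h, each under the size asked for. The whole change from 1 to 16 h was not tested.

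MAN2 was lower in MCE than in RAD at 31 h, with a difference of -2.07 ± 0.15 (adjusted p = 5.62e-23). The difference was -1.91 ± 0.15 at 38 h with ruptured endosperm (adjusted p = 5.90e-21). At 16 h and at 25 h with intact testa the differences were -0.75 ± 0.15 and -0.86 ± 0.15, and every array of MCE lay below every array of RAD without reaching the size asked for. In COT the arrays gave 4.57, 4.71, 4.17 and 4.70 at 16 h and 4.75, 5.30, 5.60 and 5.40 at 31 h, lower than in RAD at both stages (-1.37 ± 0.15 and -1.29 ± 0.15). In PE the means were 4.02 at 3 h and 4.93 at 16 h, a difference of 0.91 ± 0.16 that was not called, and without PE replicate 4 at 3 h it was 1.00 and called.

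MAN5 changed over time in the same direction as MAN1 but over a smaller range, 2.60. Its means were 5.35 in dry seed, 5.61 in MCE, 5.57 in PE, 5.07 in RAD and 5.55 in COT at 3 h, against 3.80, 3.95, 4.09 and 4.24 in the same 4 parts at 16 h. It fell by 1.62 ± 0.18 in PE and by 1.32 ± 0.17 in COT between these stages (adjusted p of 1.72e-11 or less). MAN5 was above the dim level in 14 of the 28 groups. PE (3.95) and MCE (3.80) at 16 h lay below that level, so the size of the PE fall is not exact. The change from 3 to 16 h was not tested in MCE or RAD. In MCE the difference was -0.42 ± 0.17 from 1 to 7 h and -0.82 ± 0.17 from 7 to 16 h, neither called. MCE at 38 h with ruptured endosperm had the lowest values, 2.62, 3.37, 3.16 and 2.89, all below the dim level. MCE minus RAD was -0.80 ± 0.17 there, with both means below that level, and was not called.

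MAN3 was below the dim level in all 28 groups and was called in none of the 33 comparisons. Its only difference with an unadjusted p under 0.05 was the one from 1 to 7 h in RAD, -0.31 ± 0.11 (adjusted p = 0.0193 in limma), which was under the size asked for. The highest single array of that stage pair was 3.55, RAD replicate 4 at 1 h, and without it the difference was -0.14 (adjusted p = 0.336 in limma).

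Of the 198 differences tested for the 6 genes in 33 comparisons, 35 were called, beside 77461 of the 703329 differences of all loci in the same comparisons. Changes over intervals in MCE accounted for 1 higher and 5 lower calls of 42 (8.63% called over all loci), and those in RAD for 2 higher and 1 lower of 42 (7.47%). MCE minus RAD gave 7 higher and 3 lower of 36 (19.0%). The 10 other comparisons gave 3 higher and 10 lower of 60 (11.1%), and the 3 interactions 1 higher and 2 lower of 18 (8.57%). The median over the 6 genes was -0.84 for PE from 3 to 16 h, beside -0.08 over all loci. It was -0.32 for MCE from 7 to 16 h, beside -0.03 over all loci, an interval in which MAN7 alone of the 6 rose. For MCE minus RAD it was 0.55 at 1 h, 0.45 at 7 h and -0.48 at 38 h with ruptured endosperm. The medians over all loci there were -0.02, -0.02 and 0.04. For the interaction from 1 h to 25 h with intact testa it was -0.76, beside -0.01 over all loci.

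Over the 28 group means MAN1 and MAN5 had a Pearson correlation of 0.908, MAN1 and MAN6 of 0.749 and MAN5 and MAN6 of 0.717. MAN7 had -0.462 with MAN1 and 0.317 with MAN2, and MAN1 had -0.685 with MAN2. These values describe the 28 groups, which share stages and arrays. Among 10945 other loci above the dim level with a range of at least 2, the ones most like MAN7 were AT5G08570 (0.956), GATA9 (AT4G32890, 0.950) and TRY (AT5G53200, 0.946). For MAN1 they were SYP123 (AT4G03330, 0.985), AT1G27160 (0.983) and AT1G64820 (0.980), and for MAN6 ABCG31 (AT2G29940, 0.974), AT5G61620 (0.945) and AT1G34580 (0.937). For MAN2 they were AT3G25150 (0.976), AT1G12000 (0.966) and AT1G20950 (0.965), and for MAN5 AT3G27930 (0.965), AT2G14520 (0.957) and AT2G03280 (0.952). Without dry seed the first gene of each list stayed first. SYP123 and AT1G27160 had group means of at most 5.03 and 5.17, and MAN1 was above the dim level in 8 groups.

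Other genes of mannan metabolism were read from 5 lists with 31 genes, of which 28 were measured. MSR2, TBL24 and BZIP44, a reported regulator of MAN7, were not analysed here. Among genes for breakdown, AGAL2, an alpha-galactosidase gene, became high in MCE later than MAN7. Its MCE means were 4.02 at 16 h, 7.44 at 20 h, 9.25 at 25 h with intact testa, 10.44 with ruptured testa, 11.91 at 31 h and 12.38 at 38 h with intact endosperm. AGAL2 rose by 5.23 ± 0.19 from 16 to 25 h with intact testa, by 1.19 ± 0.19 at testa rupture and by 1.47 ± 0.19 to 31 h. Its mean at 16 h lay just below the dim level, so the size of the first rise is not exact. The step at testa rupture was 0.99 and not called without the redone array, MCE replicate 1 at 25 h with intact testa. In RAD it rose by 1.22 ± 0.19 and 1.80 ± 0.19 in the last intervals before endosperm rupture. AGAL2 was higher in MCE than in RAD by 5.50 ± 0.19 at 25 h with intact testa and by 6.45 ± 0.19 at 31 h. The RAD mean at the first of these stages was below the dim level, so that size is not exact either.

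Lower in MCE than in RAD were BGLU44 and AGAL1, the latter for another alpha-galactosidase. BGLU44, a beta-mannosidase gene, was lower in MCE than in RAD at all 6 stages, with differences between -1.26 ± 0.21 at 1 h and -4.03 ± 0.21 at 25 h with intact testa. It rose by 2.80 ± 0.21 in RAD from 7 to 16 h and by 1.09 ± 0.21 in MCE. AGAL1 was lower in MCE at all 6 stages as well, with differences between -2.75 and -1.12. AGAL3 was higher in MCE only at the last stage compared, by 1.05 ± 0.09, and BGLU43 gave no call in these 6 comparisons. Several of these calls lay close to the size asked for and were lost without 1 array: BGLU44 at 1 h without MCE replicate 3 (-0.90) and in MCE from 7 to 16 h without the redone replicate 2 at 7 h (0.98), AGAL1 at the last stage without MCE replicate 2 (-0.89) and AGAL3 there without MCE replicate 1 (0.98). The BGLU44 rise in MCE was also not called with repeated quantile normalization (0.97) or with array weights (0.92). The AGAL3 call was also lost with repeated quantile normalization (0.99). Of these 5 genes for breakdown 1 was higher and 2 were lower in MCE at 25 h with intact testa, where 22.9% of all loci were called.

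Of 10 measured genes for synthesis of the backbone, CSLA2, a glucomannan synthase gene, peaked in MCE at 16 h. It rose by 1.99 ± 0.13 from 7 to 16 h, to a mean of 10.70, and fell by 1.11 ± 0.13 from 25 h with ruptured testa to 31 h and by 1.23 ± 0.13 to 38 h with intact endosperm. Without MCE replicate 2 at 31 h the first of these falls was -0.98 and not called. CSLA2 was higher in MCE than in RAD by 3.70 ± 0.13 at 1 h and 4.54 ± 0.13 at 16 h and lower at 38 h with ruptured endosperm (-2.34 ± 0.13). CSLA9, CSLA3, CSLA7 and CSLA11, further members of this synthase family, were lower in MCE at that stage, with differences between -3.96 and -2.01. MSR1, a gene for a factor in mannan synthesis, was lower there too (-2.39 ± 0.18), so that 6 of the 10 were lower and none higher at a stage where 31.6% of all loci were called, 3747 of them lower and 2998 higher.

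**Figure D4:**
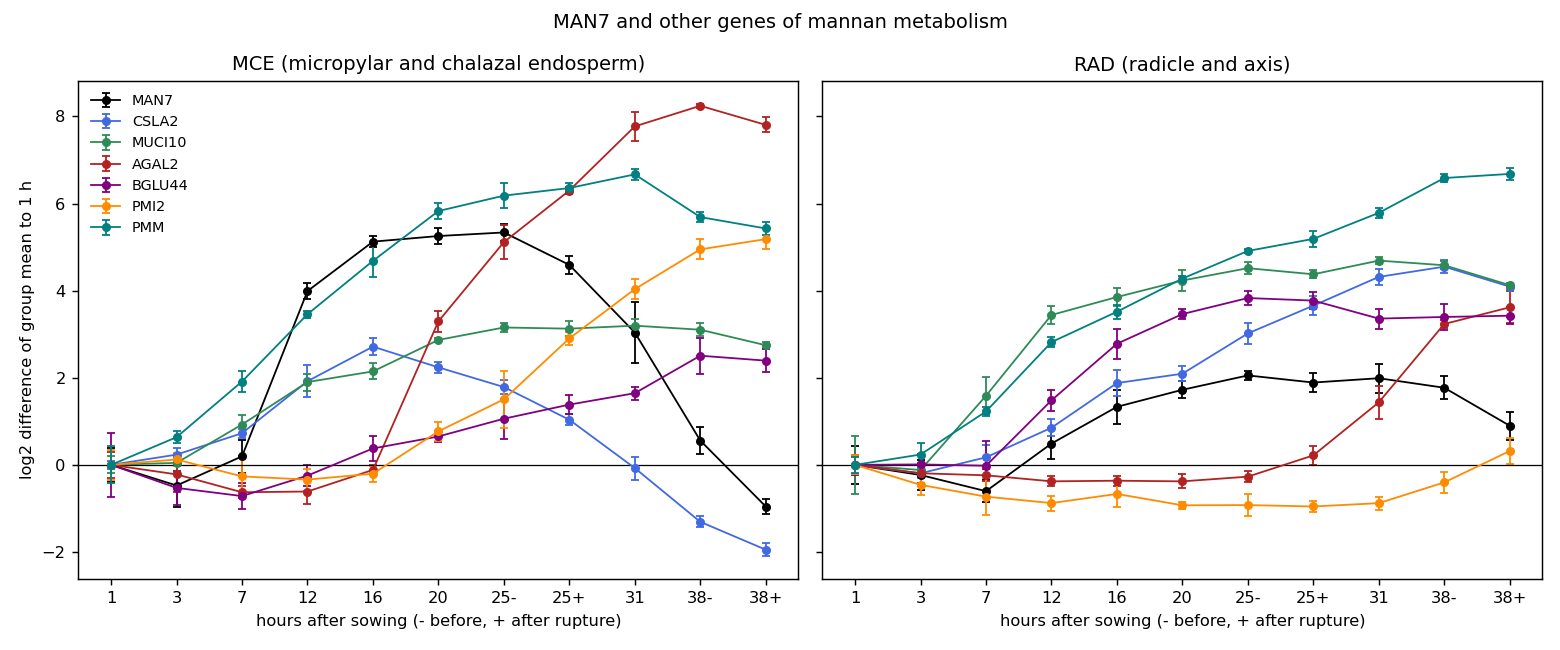
Log2 difference of each group mean to the mean at 1 h (vertical axes) for MAN7 and 6 other genes of mannan metabolism in MCE and in RAD against stage in hours after sowing (horizontal axes). Bars are the SD of 4 arrays at each stage. In MCE the MAN7 curve peaks at 25 h with intact testa and returns below its start, the AGAL2 and PMI2 curves climb after 16 h, and CSLA2 peaks at 16 h.

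Side chain and acetylation genes numbered 5 measured of 6. MUCI10, a galactosyltransferase gene for mannan, rose in RAD by 1.59 ± 0.15 from 1 to 7 h and by 2.27 ± 0.15 from 7 to 16 h, and in MCE by 1.22 ± 0.15 from 7 to 16 h. From 16 h on it was lower in MCE than in RAD, with differences between -2.02 and -1.68. MBGT1, another side chain transferase gene, fell from 1 to 7 h by 1.77 ± 0.13 in MCE and by 1.55 ± 0.13 in RAD. TBL25, an acetyltransferase gene, rose from 7 to 16 h by 1.12 ± 0.14 in MCE and by 1.18 ± 0.14 in RAD, and TBL23 and TBL26 gave no call in the intervals.

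Of the 8 genes around mannose phosphates and GDP-mannose, the sugar donor for mannan, PMM, for phosphomannomutase, rose in both parts, by 2.77 ± 0.15 in MCE and 2.29 ± 0.15 in RAD from 7 to 16 h. PMI1 and PMI2 are genes for phosphomannose isomerase. PMI1 fell by 3.66 ± 0.13 in MCE and by 3.95 ± 0.13 in RAD from 1 to 7 h, while PMI2 rose in MCE after 16 h, by 1.71 ± 0.19 to 25 h with intact testa, by 1.40 ± 0.19 at testa rupture and by 1.13 ± 0.19 to 31 h. At testa rupture PMI2 changed differently in the 2 parts, with an interaction of 1.43 ± 0.27. PMI2 was higher in MCE than in RAD by 4.32 ± 0.19 at 31 h.

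Counted over all 28 genes, MCE minus RAD went from 1 higher and 2 lower at 1 h to 1 and 4 at 16 h, 3 and 4 at 25 h with intact testa, 2 and 9 at 31 h and 4 and 16 at 38 h with ruptured endosperm. Over all loci 5.48%, 14.8%, 22.9%, 30.4% and 31.6% were called at these stages. At the last of them the median of the 28 differences was -1.15, beside 0.04 over all loci. From 7 to 16 h 5 rose and 1 fell in MCE (18.0% of all loci called) and 7 rose in RAD (18.8%). From 16 to 25 h with intact testa 6 rose in MCE (10.4%) and 5 in RAD (3.81%). Some of these calls lay close to 1. With repeated quantile normalization MUCI10 (0.99) and KJC2 (0.96), of the GDP-mannose list, were not called in MCE, nor KJC2 in RAD (0.94). In MCE the MUCI10 call was also lost without the arrays with differing labels (0.92), and the KJC2 call without the redone arrays (0.95). KJC2 in RAD was 0.85 and not called without replicate 4 at 25 h with intact testa. Further single arrays left out also ended the MUCI10 and KJC2 calls. The BGLU44 call in RAD was lost without replicate 3 (0.95) or 4 (0.96) at 16 h. It was also lost without replicate 1 at 25 h with intact testa (0.99). In PE minus MCE none was called at 3 h (0.305%) and AGAL2 alone at 16 h (1.11%), where it was higher in PE by 1.49 ± 0.19.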

How the data were processed

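The deposited table held log2 expression values, 1 column per array and 1 line per locus. RMA and affy were used, per the submitters' processing notes, and their versions, the probe definition, the genome build and any filter are not given in the sources used here. Positions are therefore left out. Protein and promoter sequences were not used here.

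Arrays were grouped by title. All of them entered a single limma model (limma 3.58.1 in R 4.3.3) with a mean for each group, 83 residual degrees of freedom and a prior worth 8.02, and p-values were adjusted by the Benjamini-Hochberg method over all 21313 loci within each of 33 comparisons. The fit was tested on simulated data. The members, lists and comparisons were chosen with earlier results of these data known. Named genes were all members, the 3 loci most like each member over group means, and up to 3 called genes per direction, list and kind of comparison.

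Symbols came from a RefSeq table, where 21205 loci matched and 108 did not. No 2 arrays were identical, and array medians lay between 4.67 and 5.22. Array numbers paired samples, by deviations from group means that correlated above 0.1 in every pair, in 2 of 30 comparisons: RAD from 7 to 16 h (lowest 0.107) and PE minus MCE at 16 h (lowest 0.265). Alternatives were another filter, scaling, normalization, prior, array weights, the replicate block, fewer groups, and arrays left out.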

Additional observations from a re-analysis of the deposited data

Results flagged for a closer look

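In 8 of 162 groups of 4 arrays tested, 1 array lay far from the other 3 by Dixon's test, which sets the gap against the range of the group. Chance alone flags about 1 in 20 groups. MAN1 gave 5 of them: dry seed replicate 2 (7.84, others 7.93 each), MCE at 25 h with intact testa replicate 4 (3.39), MCE at 25 h with ruptured testa replicate 3 (3.02), RAD at 25 h with ruptured testa replicate 1 (3.52) and RAD at 31 h replicate 3 (2.99), the last 4 at signals below the dim level. The others were MAN2 in RAD at 12 h replicate 3 (4.88, others 5.24 to 5.32), MAN5 in RAD at 7 h replicate 1 (4.02, others 4.47 to 4.53) and MAN6 in RAD at 25 h with ruptured testa replicate 3 (4.36, others 4.09 to 4.14). The spread behind these arrays was not tested for a cause.

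For 3 genes the change from 1 h to 25 h with intact testa differed between MCE and RAD in the interaction test of limma: MAN1 (-1.41, adjusted p = 2.35e-13), MAN6 (-1.45, adjusted p = 9.87e-08) and MAN7 (3.28, adjusted p = 3.89e-17). In each, every single array left out kept the call. At 25 h with intact testa the MAN1 means of both parts (3.23 in MCE, 3.35 in RAD) lay below the dim level. The MAN6 mean of MCE (3.98) lay below it as well, so these 2 sizes are not exact.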

How the results depend on the processing

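Of the 198 member differences, every one kept its side of the threshold in each alternative fit below, and no called one changed direction. These were the added scaling, repeated quantile normalization, intensity trend, array weights, replicate block and separate fits. Others left out the redone arrays or the arrays with differing labels. Without dim loci 165 could be tested, and these stood too. The intensity trend, the separate fits, the fit without dim loci and, between groups of 4 arrays, the replicate block cannot move a log2 difference. They could change only its p, so they do not test direction or size. Leaving out arrays gave 1716 values, with 4 calls lost and 3 gained, all named above and all at differences close to 1. MCE and RAD arrays were left out 1 at a time. Dry seed, PE and COT arrays of the same number were left out in sets, with at most 1 array from any comparison. The counts of called loci and of MAN calls stayed within 1.5 times the reported ones.

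With the array number as a replicate block, differences between groups of 4 arrays cannot move, only their p. MAN7 from 7 to 16 h in RAD (1.94) and PE minus MCE at 16 h (0.11) were thus the same by design. The block could move only differences with PE at 3 h, which had 3 arrays. There MAN7 from 3 to 16 h went from 6.38 to 6.39. No MAN call changed, and of 924 differences of the other mannan genes 1 call was lost. The added scaling moved the median of all loci by -0.24 in MCE and -0.18 in RAD from 1 to 7 h, by 0.12 in RAD from 31 to 38 h with intact endosperm, by 0.11 in COT minus RAD at 3 h, and by -0.19 in PE and -0.20 in COT from 3 to 16 h. It moved the share of calls that were higher from 58.9% to 42.5%, 56.9% to 44.1%, 55% to 68.8% and 39.3% to 52% in the first 4 of these. Among the other mannan genes it ended 9 calls and added 7, and repeated quantile normalization ended 16 and added 3. Levels near background, as for MAN1 after 7 h, MAN3, and MAN5 in the endosperm from 12 h on, limit what a fold can show.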
